A study of Canis lupus familiaris with 6 samples.

Results

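cfa-miR-34a, the canine form of a miRNA studied for its loss in tumours, was followed across 6 miRNA arrays hybridized with RNA of sorted canine mammary cancer cells. It is 1 of 289 miRNAs on the array and has 40 of the 11560 spots on each array that are not controls. It was chosen by its signals on these same arrays, where it was far dimmer on 1 Sca1+ array than on 2 Sca1- arrays, so every level and difference of miR-34a given here is a description and carries no test.

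miR-34a pairs through its seed, a short stretch near its 5′ end, with the messenger RNAs of cell-cycle and survival proteins such as CDK6, MET and BCL2. It has been studied in mammary and other carcinomas because it also targets CD44 and Notch pathway messengers of tumour-initiating cells. miR-34b and miR-34c come from 1 common transcript, and miR-449 shares the seed and is typical of ciliated epithelium.

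The cells were the canine mammary cancer lines CMT-U27, CMT-U309 and P114. Each line was stained for stem cell antigen 1 (Sca1), a surface antigen used to mark stem and progenitor cells, and sorted into Sca1+ cells, which the labels name cancer stem cells, and Sca1- cells, which they name the control. That gave 3 samples per fraction and 1 sample per line and fraction, with no gene or drug manipulation stated. The labels describe the P114 samples as cells grown with macrophages and the samples of the other lines as mono-culture, while the titles and sources do not mention macrophages. The labels do not say whether samples came from separate cultures, so p-values here measure only the spread between these samples, which may be technical.

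The deposited files disagree on which array belongs to which sample, and this comes before any result. The value table of the series matched the scanner file of the same sample for 2 samples and that of a different sample for 4. Both assignments are given throughout, the first as "by scanner file" and the second as "by value table". Arrays are called B1, B2 and B3 (bright, with 111, 91 and 89 detected miRNAs) and D1, D2 and D3 (dim, with 39, 22 and 9). By scanner file B1 is CMT-U309 Sca1+, B2 is CMT-U309 Sca1-, B3 is P114 Sca1-, D1 is CMT-U27 Sca1+, D2 is CMT-U27 Sca1- and D3 is P114 Sca1+. By value table B1 is P114 Sca1+, B2 is CMT-U27 Sca1-, B3 is P114 Sca1-, D1 is CMT-U27 Sca1+, D2 is CMT-U309 Sca1+ and D3 is CMT-U309 Sca1-. B1 and D1 are Sca1+ and B2 and B3 are Sca1- in either assignment. Summed signals of the bright arrays were within a narrow range, from 69282 to 70794 intensity units, and those of the dim arrays ran from 319.5 to 3228.

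miR-34a is read by 2 probes of 20 spots each. The probes are printed here with those of its relatives on the array, because the signal of miR-34a can be told from theirs only through these letters. They are antisense to the miRNA and are written 5′ to 3′, as the scanner files give them. Capitals mark the stretches CAGCTAA and ACACTG, found by comparing the longest probe of each of the 4 miRNAs; the second lies at the probe's 3′ end, opposite the 5′ part of the miRNA where the seed sits.
miR-34a, shorter probe: acaacCAGCTAAgACACTG
miR-34a, longer probe: acaacCAGCTAAgACACTGc
miR-34b, longest probe: caatCAGCTAAttACACTGcc
miR-34c, longest probe: gcaatCAGCTAActACACTG
miR-449, longest probe: acCAGCTAAcaatACACTGc
The 2 probes of miR-34a differ by 1 base at the 3′ end. CAGCTAA was found in 8 of the 656 probes on the array (1.22%) and ACACTG in 9 (1.37%), in the orientation of the probes, and no miRNA outside these 4 had both. Aligned without gaps at ACACTG, the miR-449 probe differed from the longer miR-34a probe at 7 of 20 letters, that of miR-34b at 10 of 20 and that of miR-34c at 10 of 19.

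The file maps the longer miR-34a probe to chromosome 5, 65484409 to 65484427, of the canFam2 build, and the shorter to 65484410 to 65484427, with the higher coordinate written first. These intervals have 19 and 18 bases, 1 fewer than the probes, as do all 582 probes with a single mapping. The probes of miR-34c and miR-34b map to the same chromosome at 24566994 to 24567012 and 24567584 to 24567603, and those of miR-449 to chromosome 2 at 45390372 to 45390390. In the RefSeq gene table of another build, UU_Cfam_GSD_1.0, MIR34A overlaps no other listed gene, and its neighbours are GPR157, which codes for an orphan receptor, and the lncRNA LOC111095987. MIR34B and MIR34C are next to each other inside HOATZ in that table, and MIR449A lies inside CDC20B.

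miR-34a was detected on B1, B2 and B3 and on none of D1, D2 and D3. Its total gene signal, the sum that the scanner software makes over the probes of a miRNA, was 37.5 intensity units on B1 (software error 5.86), 444 on B2 (error 33.2) and 363 on B3 (error 27.1). On the dim arrays the software set it to 0.1, its value for an undetected miRNA. B2 and B3 are close together and B1 is far below both, 11.8-fold under B2 and 9.68-fold under B3 before any scaling between arrays. The B1 total includes 13.9 from the shorter probe, on which only 1 of 20 spots was well above background there. The rank and share given below use the same total. B2 and B3 differed by 1.22-fold.

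On the longer probe the processed signal on B1 ran from 13.9 to 21.0 with a median of 17.1, and all 20 spots were well above background. Its median was 200.2 on B2 (169.9 to 236) and 158 on B3 (143 to 202), again with 20 of 20 spots well above background. The shorter probe had medians of 10.6 on B1, 130 on B2 and 102 on B3. On B1 only 1 of its 20 spots was well above background, against 20 of 20 on both B2 and B3, so the level of miR-34a on B1 is close to what the array can measure. No spot of B1 overlapped any spot of B2 or B3 on either probe. The lowest spot of B2 and B3 was 6.83 times the highest of B1 on the longer probe.

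By medians, the longer probe was brighter than the shorter by 1.53-fold on B2 and 1.56-fold on B3. On the longer probe B2 stood 11.7-fold and B3 9.27-fold above B1. No fold against B1 is given for the shorter probe, because nearly all its spots there were not well above background. Spots used for the means had a coefficient of variation of 3.84% to 9.48% on B2 and B3 and of 9.65% and 13.6% on B1. None of the 240 miR-34a spots was saturated. Spots of 1 array share 1 RNA sample and show measurement error only.

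On the dim arrays 0 of the 120 miR-34a spots were well above background. Their processed signals ran from -3.47 to 8.12, and 31 of them were at or below 0. The highest dim spot thus lay under the lowest longer-probe spot of B1.

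**Figure D1:**
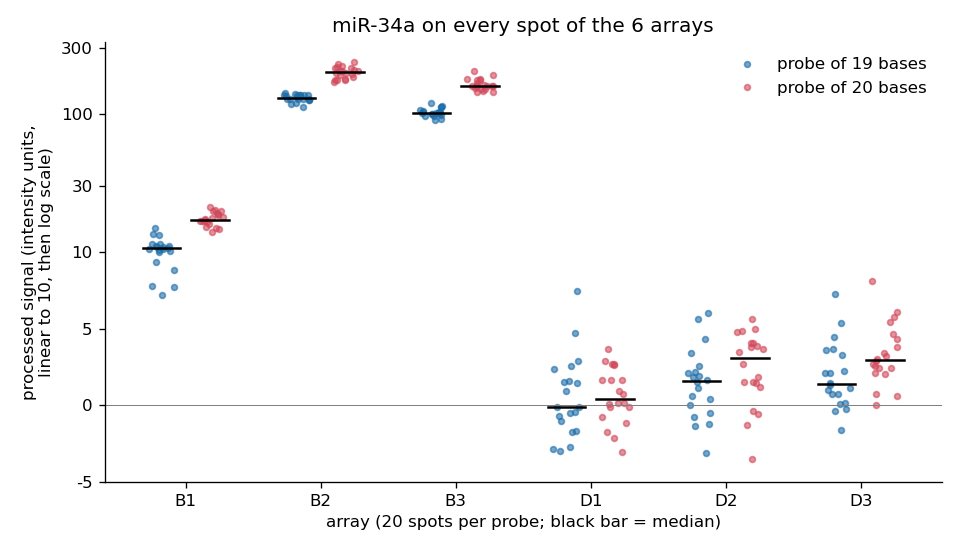
Each point is 1 spot of miR-34a; the x axis gives the array, colour the probe, and the y axis the processed signal in intensity units, linear up to 10 and logarithmic above, with black bars at the medians. B2 and B3 sit at 90.1 to 236, B1 at 7.21 to 21.0, and D1, D2 and D3 between -3.47 and 8.12.

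The place of miR-34a among other miRNAs changed in the same way. It ranked 88 of 111 detected miRNAs by total gene signal on B1, 20 of 91 on B2 and 23 of 89 on B3. A rank depends on the probes of each miRNA as well as on its amount, and is compared here only between arrays. miR-34a made up 0.0541% of the summed signal of detected miRNAs on B1, 0.627% on B2 and 0.517% on B3. It was at 0.272 times the median detected miRNA on B1, and at 3.14 and 2.43 times that median on B2 and B3. The medians themselves were alike, 138 on B1, 141 on B2 and 149 on B3, but each was taken over the miRNAs detected on its own array. Over the same 90 miRNAs without scaling, the median of B1 minus the mean of B2 and B3 was 0.50 log2, so brighter on B1.

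**Figure D2:**
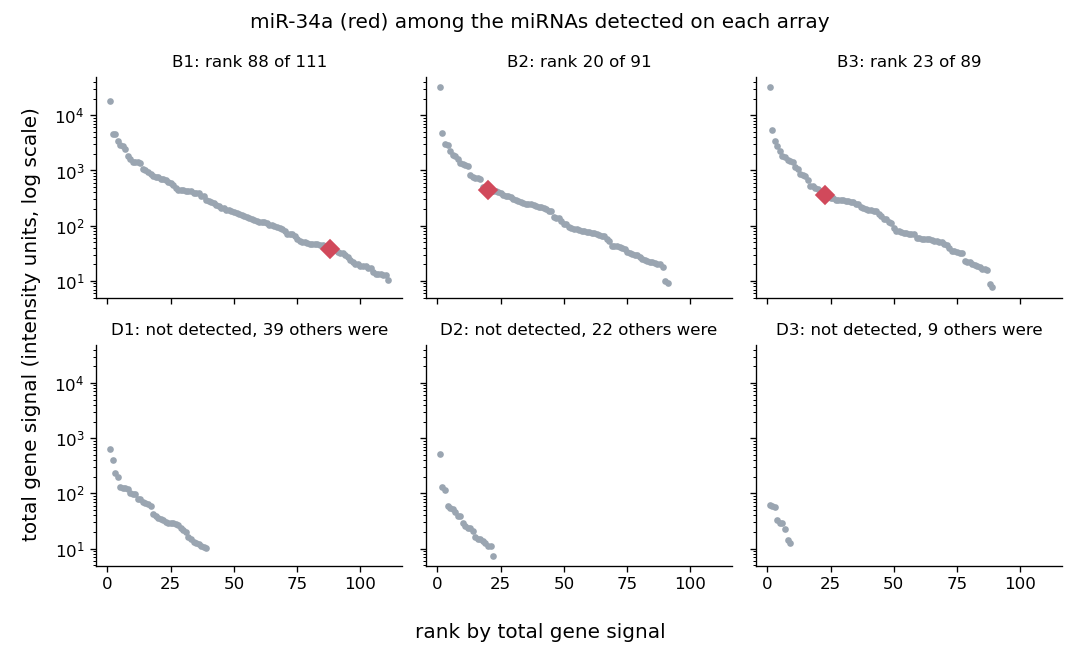
Each panel is 1 array, with the rank of each detected miRNA on the x axis, its total gene signal in intensity units on a log y axis, and miR-34a as a red diamond. miR-34a lies in the upper part of the curve on B2 and B3, near the lower end on B1 (rank 88 of 111), and is missing from D1, D2 and D3.

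Within lines, the question is whether Sca1+ cells differ from the Sca1- cells of the same line. By scanner file, CMT-U309 had 37.5 in Sca1+ and 444 in Sca1-, P114 was undetected in Sca1+ and at 363 in Sca1-, and CMT-U27 was undetected in both. By value table, P114 had 37.5 in Sca1+ and 363 in Sca1-, CMT-U27 was undetected in Sca1+ and at 444 in Sca1-, and CMT-U309 was undetected in both. In each assignment 1 line had miR-34a measured in both fractions, with the Sca1+ sample lower, 1 line had it in Sca1- cells alone, and 1 line in neither. Of the 4 arrays whose fraction is the same in both assignments, the Sca1+ array B1 gave 37.5 and the Sca1- arrays 444 and 363. The other Sca1+ array, D1, is dim, and its undetected value is not a level, so overlap between the fractions cannot be judged from it.

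Absence from a dim array is not a low level. After scaling between arrays, the dimmest signal that D1, D2 or D3 could have shown was often above the level of miR-34a on the bright arrays. For P114 by scanner file (B3 over D3), for CMT-U309 over CMT-U27 by scanner file and for P114 over CMT-U309 by value table, no fold can be given for that reason. For CMT-U27 by value table (B2 over D1), miR-34a was at least 2.45-fold higher in Sca1- cells by the scaling used here and at least 1.496-fold with quantile scaling, and with scaling over all probes no fold could be given. Without any scaling the 4 bounds were 4.57 (CMT-U309 over CMT-U27), 13.2 (P114 by scanner file), 4.16 (P114 over CMT-U309) and 16.0 (CMT-U27 by value table). Unscaled bounds include the difference in brightness between the arrays, so they are not read as folds of miR-34a between lines or fractions. In bulk RNA of this kind, fewer cells with miR-34a and less miR-34a per cell cannot be told apart.

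By line, the order of levels therefore rests on the assignment. By scanner file miR-34a was detected in both CMT-U309 samples, in 1 of the 2 P114 samples and in neither CMT-U27 sample. By value table it was detected in both P114 samples, in 1 CMT-U27 sample and in neither CMT-U309 sample. The P114 Sca1- sample, which has the same array in both, was at 363, below the 444 of B2 and above the 37.5 of B1. The P114 Sca1+ sample was undetected in one assignment and at 37.5 in the other. Whether samples labelled as grown with macrophages lie apart from the mono-culture samples cannot be judged. In either assignment the comparison rests on undetected values from dim arrays, which are not low levels.

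Over all 6 arrays, with a term for line, the scaled log2 difference of miR-34a, Sca1+ minus Sca1-, was -3.76 with an SD of 2.93 between the lines (n = 3 pairs by scanner file). The differences in the lines were -6.43 in CMT-U27, -4.22 in CMT-U309 and -0.63 in P114. Those of CMT-U27 and P114 are made from undetected values on dim arrays, and their sizes have no order. In this comparison 0 of 80 miRNAs tested passed a Benjamini-Hochberg adjusted p of 0.05 with limma (0%), 0 had an unadjusted p under 0.05, and the median difference of all 80 was -0.81. Without the CMT-U27 Sca1+ or Sca1- array (D1 or D2) the miR-34a difference was -2.43, close to the medians of all miRNAs tested then, -2.10 and -2.16, and it ranked 33 of 79 and 34 of 78 from the lowest. With values floored at the limit of detection it was -1.39.

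On the bright arrays alone, B1 against B2 and B3, the scaled log2 difference of miR-34a was -3.70 (n = 1 and 2), a 13.0-fold lower level on B1. Its SE of 0.28 comes from limma, which draws on the spread between B2 and B3 over all miRNAs tested. B1 has no replicate, so that SE holds no spread between Sca1+ samples. B2 and B3 differed by -0.08 for miR-34a, against a median size of 0.29 over the 78 miRNAs detected on all 3. The median difference of the 90 miRNAs tested was 0.18. In this comparison 4 of 90 miRNAs (4.44%) were called lower in B1 with limma at an adjusted p of 0.05 and 0 higher (0%), and 23 had an unadjusted p under 0.05. miR-34a was among the lower ones, and was chosen for it, so nothing is read from that call. Its difference was the second lowest of the 78 miRNAs detected on all 3 arrays, after miR-140. B1 is the only Sca1+ array here. Its Sca1- partner of the same line is B2 by scanner file, while the value table makes it B3. Fraction, line and anything else particular to that sample cannot be told apart.

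**Figure D3:**
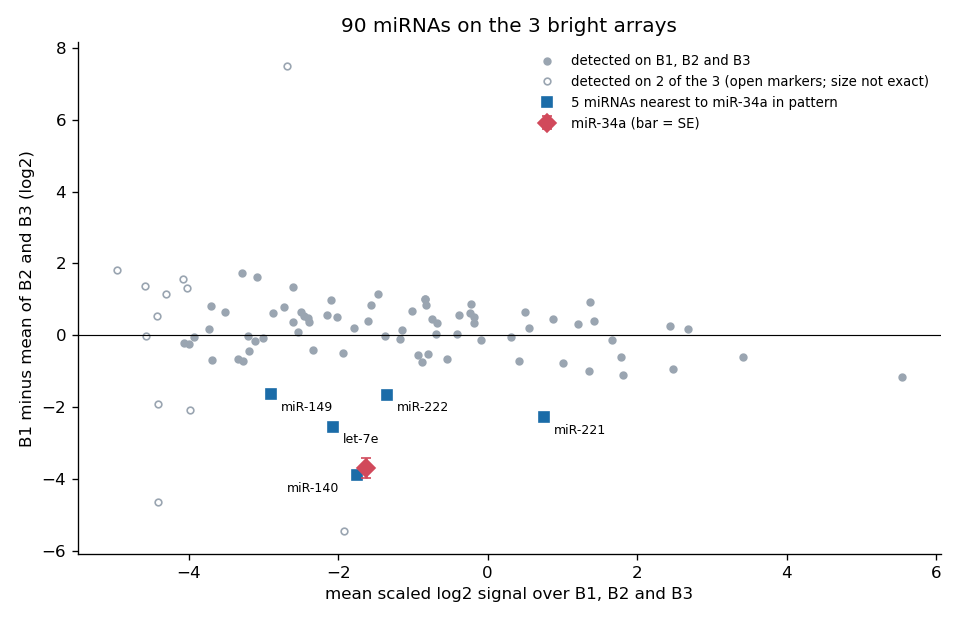
Each marker is 1 of 90 miRNAs on the bright arrays, with its mean scaled log2 signal on the x axis and B1 minus the mean of B2 and B3 (log2) on the y axis. miR-34a (red) lies at -3.70, and the 5 miRNAs nearest to it in pattern (blue squares) lie between -3.89 and -1.65. The bar on miR-34a is the SE from limma, which holds no spread between Sca1+ samples. Open markers are miRNAs detected on 2 of the 3, whose size is not exact.

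The rest of the miR-34 and miR-449 family was not seen. miR-34b, miR-34c and miR-449 were detected on 0 of 6 arrays. Over the bright arrays, 0 of 60 spots were well above background on each miR-34b and miR-449 probe and on the shorter miR-34c probe, and 1 of 60 on the longer miR-34c probe, a spot of 22.4 on B2. Median processed signals of these 6 probes on B2, where miR-34a stood at 130 and 200.2, ran from -0.35 to 2.11. Probes that share CAGCTAA with those of miR-34a thus stayed near background on the arrays where miR-34a was bright. miR-34a is the only family member whose variation can be described here.

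The miRNAs nearest to miR-34a in pattern were sought by the distance between log2 profiles centred over the arrays. Over the bright arrays, among 77 other miRNAs detected on all 3, these were miR-140 (distance 0.33), let-7e (1.11), miR-221 (1.17), miR-149 (1.67) and miR-222 (1.68), with miR-21 next at 2.09. Each is lower on B1 than on B2 and B3, as miR-34a is, which follows from choosing them by closeness to its profile. miR-140, known from cartilage, had 19.9 on B1, 390 on B2 and 430 on B3, and its log2 difference was -3.89. let-7e, of the let-7 family that marks differentiated cells, had 50.7, 206 and 292. miR-221 had 175, 746 and 667. Its cluster partner miR-222, with which it lowers the CDK inhibitor p27, had 118, 346 and 251. miR-149 had 45.1, 107 and 79.2. On the dim arrays D1, D2 and D3 it still read 39.7, 38.6 and 33.5, close to its value on B1. Its direction turned with normexp background (0.42 against -1.65), while the other 4 kept theirs there and with each scaling tried. miR-140 differed by about as much as miR-34a, and the other 4 by less.

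**Figure D4:**
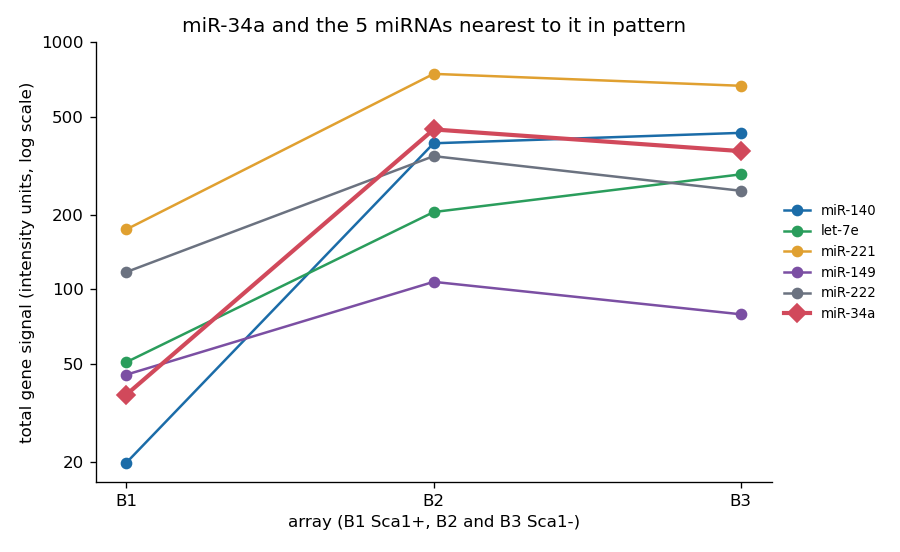
Total gene signal in intensity units on a log y axis over the bright arrays on the x axis, for miR-34a (red) and the 5 miRNAs nearest in pattern. All 6 lines are lowest on B1, and miR-34a (37.5 to 444) and miR-140 (19.9 to 430) are the steepest. The shared direction follows from choosing the 5 by closeness to miR-34a over these arrays.

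Over all 6 arrays the nearest were miR-10b, miR-98, let-7b, let-7c and let-7e, at distances of 4.72 to 6.28. These distances are large and rest mostly on undetected values on D1, D2 and D3. let-7b was detected on all 6 arrays and let-7c on 5, and both were lowest on D1 on the scaled log2 scale (-3.76 and -4.30), as miR-34a was (-11.76, an undetected value). On the other 5 arrays let-7b lay between -1.004 and -0.88 and let-7c between -2.09 and -1.67, without the gap of miR-34a between B1 and the other bright arrays. miR-34a shares its detection pattern, B1, B2 and B3 alone, with 37 other miRNAs, which makes 38 in all. Of the 38, 7 had a lower signal on B1 than on both B2 and B3. miR-34a and miR-140 were the 2 that were over 5-fold lower on B1, and miR-185, with 138 on B1, 23.3 on B2 and 21.9 on B3, was the 1 over 5-fold higher (the limit of 5 and these names were chosen after the values were seen).

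Markers of cell types moved between the same arrays. Of 7 epithelial miRNAs, B1 showed 5, B2 showed 1 and B3 showed 0, with summed signals of 5129, 28.9 and 0. Among them miR-141, of the miR-200 family that keeps the epithelial state, read 2839 on B1, 28.9 on B2, 23.9 on D2 and was undetected on B3. miR-200c (1427) and miR-205 (101) were detected on B1 alone. miR-200a and miR-200b, of the same family as miR-141, were detected on no array, B1 included. Of 4 stromal miRNAs, miR-199 read 245 on B2, 193 on B3 and was undetected on B1, while miR-143, miR-145 and miR-214 were detected on no array. Of 6 leukocyte and macrophage miRNAs, the bright arrays in that order showed 3, 2 and 3, with summed signals of 948, 219 and 182, of which miR-146a on B1 alone gave 690. On each dim array miR-223 was the only one, at 59.6 to 65.7, near its 69.5, 80.9 and 70.9 on B1, B2 and B3. The signal of miR-223 thus did not follow the brightness of the arrays, and no leukocyte content is read from it. miR-142, found throughout blood cell lineages, and miR-150, of mature lymphocytes, were detected on no array, which says little for the dim ones. miR-451, of red cells, had 18.1 on B2 and 39.4 on D2. The part of these differences between samples in the level of miR-34a was not tested.

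The miR-34a difference on the bright arrays was below 0 in each of 14 other ways of processing, all of which use the same B1. Changing which other miRNAs are tested, or using the longer probe alone, could not move it from -3.70. Its size ran from -4.16 with scaling over all probes to -0.73 with normexp background, which adds an offset of 50 intensity units to every spot. Without B2 the difference was -3.68 and without B3 -3.86, so neither Sca1- array alone sets it.

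**Figure D5:**
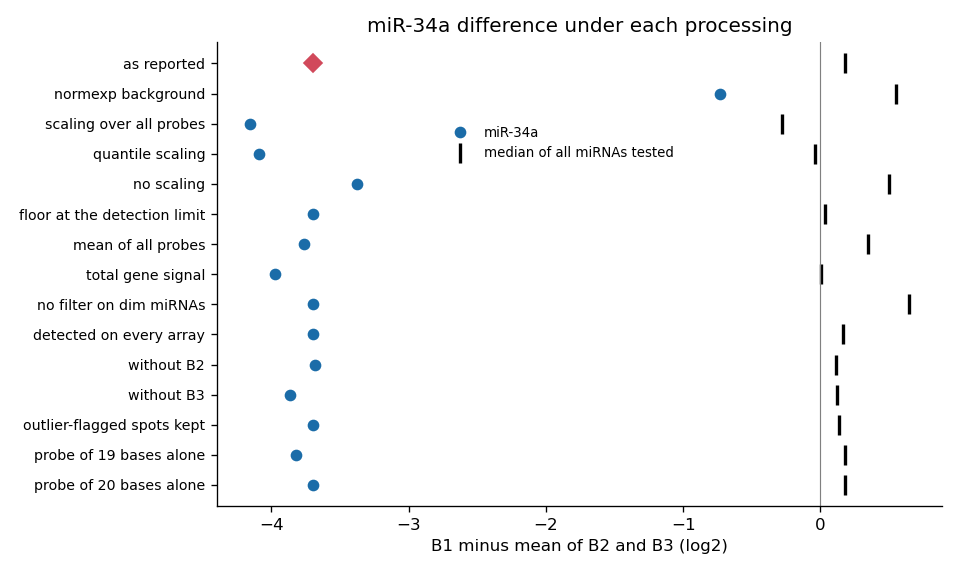
B1 minus the mean of B2 and B3 (log2) on the x axis for miR-34a (points; red diamond as reported) and for the median of all miRNAs tested (black ticks) under each processing on the y axis. miR-34a lies between -4.16 and -3.38 except with normexp background, where it is at -0.73 and the median of all miRNAs at 0.55.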

How the data were processed

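The deposited scanner files give an intensity per spot. Their headers name Feature Extraction 10.10.1.1, while the submitters' processing notes name 10.7.3.1. Spatial detrending was switched on, per the file headers, and the processed intensity is not scaled between arrays. All 6 arrays lay on 1 slide with 1 scan date. Over its 311 features, every column of the deposited values had a single scanner file whose total gene signals were equal to it (tolerance 0.0001). The labels name the dye Cy5, while the files hold 1 green channel, and this was not settled.

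Intensities not above 0 took the array's lowest positive value. Log2 values were averaged over the spots of a probe, without outlier-flagged spots, and scaled by the 75th percentile over probes well above background on every array used (on over 0.5 of their spots), which were 10 probes of 6 miRNAs over 6 arrays and 122 probes of 70 miRNAs over the bright arrays. A miRNA took its probe with the highest mean. A bright array had over 50 detected miRNAs. Tests used limma 3.58.1 in R 4.3.3, with the package data.table (1.17.8), over miRNAs detected on at least 3 of 6 arrays (2 residual degrees of freedom, with the line as a block because both fractions came from it) or at least 2 of 3 bright arrays (1 residual degree of freedom). P-values were adjusted by Benjamini-Hochberg at 0.05. Code was tested on simulated data. Descriptions used Python 3.11.15 with pandas 2.3.3, and plots matplotlib 3.10.9.

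Named were miR-34a, members of the family and marker lists and the 5 miRNAs nearest in pattern over either set of arrays; miR-21, the next nearest, and miR-185 lie outside that rule. The miRNA and all lists were chosen with earlier results of these data known. Some lists fixed in the design are not reported here. The precision is limited by the number of arrays.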

Additional observations from a re-analysis of the deposited data

How the results depend on the processing

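Over 6 arrays no miRNA passed with limma under any of 21 alternatives, and the miR-34a difference was below 0 in all 17 that gave one. It was -0.038 with normexp background and moved by less than the SD between lines (2.93) in the other 16. That SD is made partly from undetected values, so it is a loose limit. Leaving out the filter on dim miRNAs, using the longer probe alone or dropping the line block (each line holds 1 complete pair) could not move the difference. The 16 values ran from -5.74 on the 4 arrays of undisputed fraction to -1.39 with values floored at the limit of detection. They include -2.43 without D1 or D2 and -5.24 without D3. Leaving out B1, B2 or B3 gave no value, because miR-34a was then detected on fewer than the 3 arrays required. So none of the arrays that carry its signal could be left out. The 16 also include the value-table assignment (-4.94) and the fit with no replicate block (-3.76, the same as with the line as a block). On the bright arrays the miR-34a difference, -3.70, became -0.73 when the background was corrected by normexp. It was -4.16 when all probes set the scale, -3.38 when nothing was scaled and -4.09 with quantile scaling. Averaging all probes gave -3.76, the total gene signal -3.97 and the shorter probe alone, mostly not well above background on B1, -3.82. It ran from -3.86 to -3.68 when B2 or B3 was left out, which leaves no residual degree of freedom and so no count. The count of miRNAs past the threshold there, 4, became 54 by normexp (43 higher, 11 lower), 11 when all probes set the scale (1 higher, 10 lower), 10 when values were floored at the limit of detection (3 higher, 7 lower), 8 among miRNAs detected on every array (2 higher, 6 lower) and 2 with the mean of all probes. It was 0 with quantile scaling (29 at an unadjusted p under 0.05, miR-34a no longer called) and 0 without a filter on dim miRNAs (32 unadjusted). The median difference of all miRNAs tested moved too, from 0.18 to 0.55 by normexp, -0.28 when all probes set the scale, -0.04 with quantile scaling and 0.50 without scaling. For each of these shifts the cause was not tested. By the brightest probe miR-34a ranked 91, 23 and 26 on B1, B2 and B3 instead of 88, 20 and 23. By Pearson correlation 3 of the 5 nearest miRNAs on the bright arrays were shared, and 4 of 5 over 6 arrays. Keeping outlier-flagged spots and using 1 probe alone were added after the data were seen. Signal over background limits every statement on D1, D2 and D3.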
